A study of Mus musculus with 48 samples.

Results

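The highest dose of dichloroacetic acid (DCA) in frozen liver (FROZ) was described here from 12 TempO-Seq libraries, 6 from mice given 427 mg/kg-d and 6 from vehicle controls. They were chosen by preservation and dose as the sample records give them, out of 48 samples in the series. Each library came from the liver of 1 male B6C3F1 mouse that was 4 weeks old. Pieces of mixed lobes were the source of total RNA. They had been stored frozen for decades before the RNA was isolated. The paper gives low RNA integrity numbers for this RNA, yet describes its quality as relatively good beside the matched formalin-fixed samples. The paper places these mice in a study of cell proliferation and names no treatment of them besides DCA. DCA was given in drinking water for 6 days at 3.5 g/L, which corresponded to 427 mg/kg-d, and controls (animals 3 to 8) drank water with 0 g/L. Frozen livers at 198 mg/kg-d (1.0 g/L) and 313 mg/kg-d (2.0 g/L), again 6 each, entered the same fit and are given where they show how a gene moved below the top dose. Mice were separate animals, so p-values measure the spread between animals. In TempO-Seq, detector oligos that anneal next to each other on a transcript are ligated, amplified and counted.

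DCA is a by-product of water disinfection and a known inhibitor of the kinases that switch off pyruvate dehydrogenase, the complex that feeds pyruvate into the citric acid cycle. In rodent liver it is known as a peroxisome proliferator. Peroxisome proliferators act through the nuclear receptor PPARα, which binds DNA with its partner RXR and switches on genes for the uptake, activation and oxidation of fatty acids in peroxisomes and mitochondria. Hepatocytes also make most plasma proteins, among them complement, clotting factors, carriers and protease inhibitors, and they carry sex-dependent and daily programs of gene expression. The account follows these functions, and Acot and Cyp genes, which are much used as markers of this receptor, are only touched on.

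Levels are log2(CPM + 1) as deposited, with CPM for counts per 1000000 reads on listed genes, and groups of 6 livers are given as lowest, median and highest level. Changes are log2 fold changes of 427 mg/kg-d against the controls ± standard error from limma, with the false discovery rate (FDR, Benjamini-Hochberg over all genes). Differentially expressed genes (DEGs) changed more than 2-fold in either direction, beyond 1 on the log2 scale, with an FDR under 0.05. Because of the offset of 1, the change of a gene near 0 is understated. Probes of abundant genes were attenuated, so levels are compared between livers and not between genes.

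Of 11275 genes in the table, 255 were DEGs that rose (2.26%) and 140 were DEGs that fell (1.24%). At an FDR under 0.05 with any fold change, 2565 genes rose (22.7%) and 826 fell (7.33%). In 1658 genes (14.7%) the 6 treated livers all lay above (1289 genes) or all below (369 genes) the 6 controls. This was so in 323 of the 395 DEGs. Acot and Cyp genes made up 21 of the DEGs. The other 374 comprised 240 that rose, with a median change of 1.36, and 134 that fell, with a median change of -1.30. The median change of all genes was 0.10, so most genes sat slightly above their controls. When the libraries were scaled by the median ratio of genes instead of the total, 192 DEGs rose and 193 fell (49.9% upward against 64.6% as deposited), and at an FDR under 0.05, 1423 rose and 1424 fell (50.0% upward against 75.6%). By an exact rank sum test 26 of the genes described below did not pass (FDR 0.0554 to 0.399). They are Vldlr, Saa1, Ppara, Cyp7a1, Akr1e1, Sult1e1, Fmo5, Arntl, Ciart, Cry1, Mup1, Mup20, Cyp2c69, Nipal1, Creld2, Hspa5, Cdc20, Kif20a, Plk3, Psmc1, Hba-a1, Hba-a2, Acta1, Mylpf, Raet1b and Raet1d. Changes below are as deposited, and a list's median is also given relative to the 0.10 of all genes. Counts of list members that rose or fell are to be read beside the 22.7% and 7.33% of all genes. Several lists lie near those shares.

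The 12 libraries held 7.50 to 9.84 M reads on listed genes (M), recovered from the step of the low values, so that 1 read was worth 0.102 to 0.133 CPM. Between 12 and 61 genes were at 0 (below 1e-05 CPM) in a control and between 20 and 41 in a treated liver. The 10 most abundant genes accounted for 13.4 to 14.9% of a control library and for 11.6 to 12.8% of a treated one. Correlation of libraries over genes, which are not independent replicates, was 0.978 to 0.990 between controls, 0.982 to 0.992 between treated livers and 0.965 to 0.978 across the groups. Of the hepatocyte markers 17 of 18 were listed, led by Apoa1 at 14.09 to 14.44 in the controls and 13.65 to 14.18 at 427 mg/kg-d and Trf at 13.82 to 14.15 in the controls and 12.79 to 13.65 at 427 mg/kg-d. Control animal 8 stood apart in acute phase genes and control animal 5 in skeletal muscle genes, and treated animal 101 in digestive enzymes of the pancreas and in lymphocyte markers. Values without them are given beside the results they move. Without animal 101 there were 405 DEGs, 250 higher and 155 lower. Without control animal 8 there were 393 DEGs, 246 higher and 147 lower. Animal 8 also had the lowest control mean in the lists of the peroxisome, mitochondrial fatty acids, lipid synthesis, glutathione transferases and Nrf2. For glutathione transferases this mean log2 difference from the controls was -0.47 there and 0.04 to 0.13 in the other controls. Control animal 5 had the highest control mean in the glycolysis and pyruvate dehydrogenase lists (0.47 and 0.29).

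**Figure D1:**
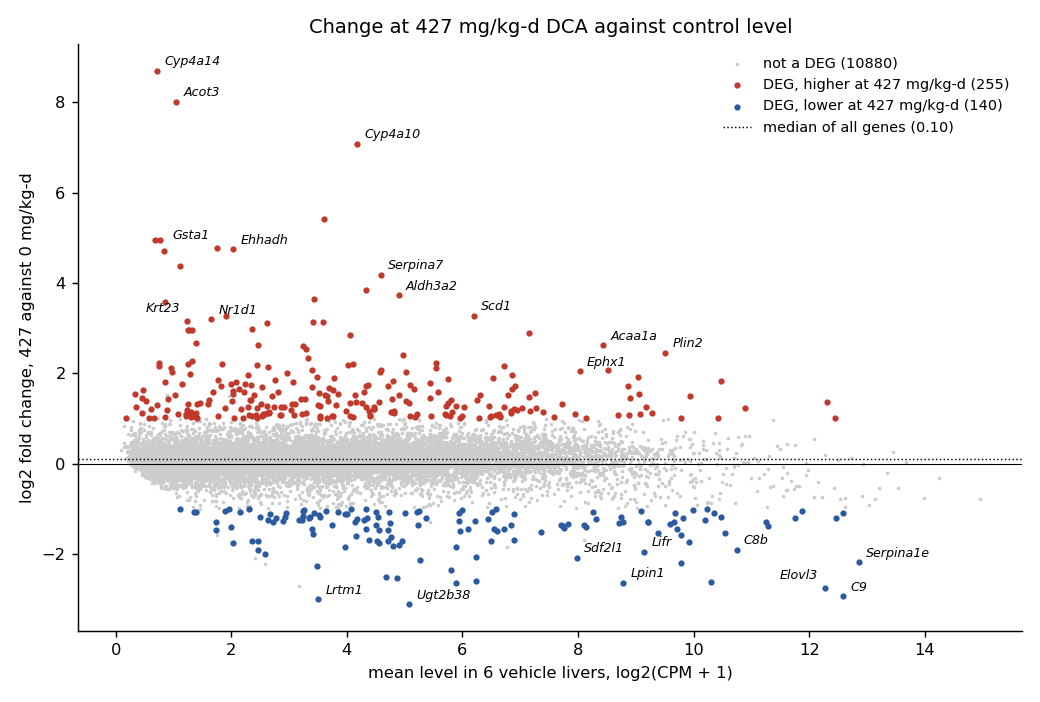
Change at 427 mg/kg-d (vertical axis, log2 fold change against controls) plotted against the mean control level (horizontal axis, log2(CPM + 1)) for each of 11275 genes, with 255 DEGs that rose in red, 140 that fell in blue and the median of all genes as a dotted line at 0.10. Genes low in controls such as Gsta1 and Ehhadh rose by more than 4 on the log2 scale, whereas C9, Elovl3 and Serpina1e fell from the upper end of the level range.

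Among the genes that mark this contrast, Cyp4a14, Acot3 and Cyp4a10 took control medians of 0.56, 1.01 and 4.20 to 9.48, 8.98 and 11.29. These enzymes of fatty acid hydroxylation and acyl-CoA hydrolysis had the largest increases in the table. Nr1d1 (a repressor of the clock), C9 (a pore-forming complement protein) and Lrtm1 are described with their groups. Outside the Acot and Cyp families, the largest increases were those of Gsta1, Ehhadh, Gm3776, Serpina7 and Aldh3a2, and the largest decreases those of Ugt2b38, Lrtm1, C9, Elovl3 and Lpin1. In each of these 10 genes the 6 treated livers lay outside the range of the controls.

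Promoter sequence is shown for genes at both ends of this ranking, because members that moved together invite a look at the DNA next to their starts. Windows run from 250 bases before to 50 bases after the start (RefSeq, build GRCm38.p6, gene strand, 5′ to 3′), and 12 of 14 genes looked up had a window. On both strands 3 motifs were searched: AGGTCA, a binding unit of many nuclear receptors, 2 copies of AGGTCA in the same direction with 1 base between, the arrangement known for PPARα with RXR, and the E-box CACGTG, known for CLOCK and its partner. The repeat also counts as AGGTCA. Capitals mark matches. AGGTCA was found in 16.3% of 32851 windows, the repeat in 0.0396% (13 windows) and CACGTG in 7.15%. Counted by gene over all its windows, AGGTCA was found in 15.1% of 8975 listed genes. Its share was 17.8% of the DEGs that rose and 25.4% of those that fell. For CACGTG the 3 shares were 11.7, 12.2 and 7.02%. These differences were not tested. Igsf23 was chosen after its values were seen, as the only DEG with the repeat among the 197 that rose and 114 that fell and had a window. It occurs in 1 of the 2 windows of Igsf23, the one shown, at positions from -72 on, and the change of Igsf23 was 1.32 (FDR 2.66e-06). The E-box of Aldh3a2 starts at -30, and AGGTCA starts at -74 in Lpin1 and -25 in Ugt2b38. In Ehhadh and C9 none of the motifs occurs in this window, which says only that these letters are absent there.
Ehhadh (chr16:21787785-21788084, minus strand): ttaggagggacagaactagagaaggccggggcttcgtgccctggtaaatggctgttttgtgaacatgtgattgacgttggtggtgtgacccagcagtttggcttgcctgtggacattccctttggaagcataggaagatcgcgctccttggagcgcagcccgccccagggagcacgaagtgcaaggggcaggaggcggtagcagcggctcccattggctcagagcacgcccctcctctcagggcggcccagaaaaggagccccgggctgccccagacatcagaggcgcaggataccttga
Aldh3a2 (chr11:61267137-61267436, minus strand): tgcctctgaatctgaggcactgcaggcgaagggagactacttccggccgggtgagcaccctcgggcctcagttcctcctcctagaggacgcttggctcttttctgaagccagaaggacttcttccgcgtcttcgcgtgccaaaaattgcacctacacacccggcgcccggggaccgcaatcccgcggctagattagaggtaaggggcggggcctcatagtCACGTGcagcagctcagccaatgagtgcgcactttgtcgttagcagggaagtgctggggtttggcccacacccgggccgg
Igsf23 (chr7:19950694-19950993, minus strand): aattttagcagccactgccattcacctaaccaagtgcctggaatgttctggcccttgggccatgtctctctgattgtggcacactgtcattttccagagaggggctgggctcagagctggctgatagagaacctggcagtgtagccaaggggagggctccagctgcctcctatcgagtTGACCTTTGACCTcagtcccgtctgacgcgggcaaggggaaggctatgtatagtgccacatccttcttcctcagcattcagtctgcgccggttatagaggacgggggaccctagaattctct
C9 (chr15:6445096-6445395, plus strand): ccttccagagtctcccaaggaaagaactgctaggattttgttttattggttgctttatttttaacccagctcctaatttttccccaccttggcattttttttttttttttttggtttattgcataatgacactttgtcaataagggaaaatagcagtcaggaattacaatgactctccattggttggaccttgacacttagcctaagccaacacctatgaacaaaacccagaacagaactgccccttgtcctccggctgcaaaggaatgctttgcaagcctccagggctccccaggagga
Lpin1 (chr12:16610917-16611216, minus strand): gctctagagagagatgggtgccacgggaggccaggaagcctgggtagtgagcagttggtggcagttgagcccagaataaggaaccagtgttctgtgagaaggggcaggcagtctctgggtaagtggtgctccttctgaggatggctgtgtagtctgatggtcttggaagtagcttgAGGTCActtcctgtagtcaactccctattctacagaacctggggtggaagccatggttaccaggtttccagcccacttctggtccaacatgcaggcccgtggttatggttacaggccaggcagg
Ugt2b38 (chr5:87424154-87424453, minus strand): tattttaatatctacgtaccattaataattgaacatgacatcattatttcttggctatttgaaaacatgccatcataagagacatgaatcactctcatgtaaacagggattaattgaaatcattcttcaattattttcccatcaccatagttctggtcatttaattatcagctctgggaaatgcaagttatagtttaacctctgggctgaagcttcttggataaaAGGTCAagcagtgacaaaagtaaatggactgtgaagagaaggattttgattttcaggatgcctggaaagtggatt

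**Figure D2:**
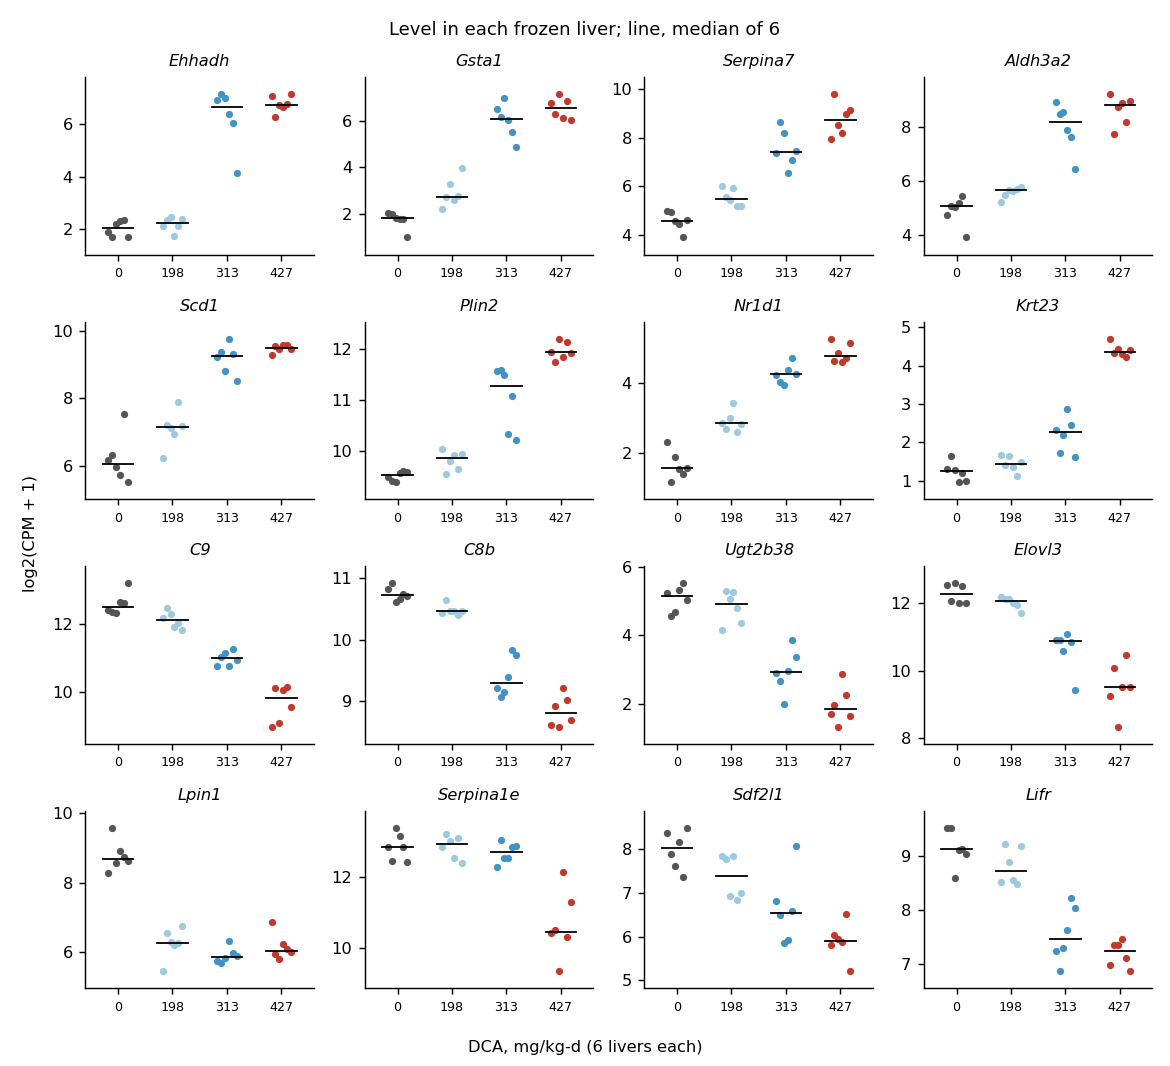
Level in every frozen liver (vertical axes, log2(CPM + 1)) by dose of DCA (horizontal axes, mg/kg-d) for 16 genes, with a point for each of 6 livers and a line at their median. Ehhadh, Gsta1 and Scd1 are close to their top level already at 313 mg/kg-d, Krt23 rises mainly between 313 and 427 mg/kg-d, Lpin1 is low from 198 mg/kg-d on and Serpina1e falls at 427 mg/kg-d alone among the medians.

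Fatty acid oxidation rose broadly. Of 47 listed genes of the peroxisome, 32 rose and 1 fell at an FDR under 0.05, with 12 DEGs, all upward, and a median change of 0.58, which is 0.48 above that of all genes. Ehhadh, which carries out the hydratase and dehydrogenase steps of peroxisomal β-oxidation, held 1.68, 2.05 and 2.34 in the controls and 6.27, 6.75 and 7.14 at 427 mg/kg-d (4.75 ± 0.31, FDR 1.24e-11). Its groups lay far apart, and the livers at 313 mg/kg-d had a median of 6.65. Acaa1b and Acaa1a encode thiolases of the last step, and Acaa1a held 8.26, 8.38 and 8.78 in the controls and 10.27, 11.17 and 11.41 at 427 mg/kg-d (2.63 ± 0.23, FDR 1.29e-09). Acaa1b was low in controls at 0.83 to 1.72 in the controls and 3.57 to 4.59 at 427 mg/kg-d (2.97 ± 0.26, FDR 1.29e-09), and 30.5% of its 50-base windows occur in other genes, mostly Acaa1a, so its reads may be shared. Crat, a carnitine acetyltransferase, held 1.81, 2.47 and 3.18 in the controls and 4.92, 5.05 and 5.38 at 427 mg/kg-d (2.63 ± 0.24, FDR 3.53e-09). Of 16 genes of peroxisome assembly and division, 11 rose, yet only Pex11a, a factor of division, was a DEG at 3.35 to 4.16 in the controls and 4.83 to 5.99 at 427 mg/kg-d (1.90 ± 0.24, FDR 8.38e-07). Pex11a was named after its values were seen.

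Mitochondrial fatty acid use and ketone synthesis followed, with 24 of 30 genes higher, 0 lower, 10 DEGs and a median change of 0.76 (0.65 above all genes). Slc22a5, the carnitine carrier of the cell membrane, held 0.27, 0.78 and 1.12 in the controls and 2.54, 2.99 and 3.26 at 427 mg/kg-d (2.17 ± 0.22, FDR 3.13e-08). Slc25a20, which carries acylcarnitine across the inner mitochondrial membrane, rose, with levels of 3.36 to 4.11 in the controls and 4.60 to 5.45 at 427 mg/kg-d (1.29 ± 0.16, FDR 8.48e-07). The groups of both carriers did not overlap. Acadm, the medium-chain dehydrogenase, held 8.90, 9.06 and 9.15 in the controls and 10.36, 10.54 and 10.99 at 427 mg/kg-d (1.54 ± 0.13, FDR 6.10e-10). Decr1, needed for unsaturated chains, held 7.13, 7.28 and 7.36 in the controls and 8.58, 8.81 and 9.09 at 427 mg/kg-d (1.57 ± 0.11, FDR 6.91e-11). Cpt2 behaved alike at 6.16 to 6.46 in the controls and 7.22 to 7.91 at 427 mg/kg-d (1.41 ± 0.12, FDR 1.17e-09). By contrast, Cpt1a, which guards entry into mitochondria, had a change of 0.33 ± 0.22 that did not pass the test (FDR 0.271). Fgf21, a hormone released by liver, was low in all livers and held 0.15 to 0.75 in the controls and 1.01 to 1.93 at 427 mg/kg-d (1.13 ± 0.18, FDR 1.62e-05). The receptor gene Ppara itself held 7.71, 8.40 and 8.82 in the controls and 8.47, 8.77 and 9.07 at 427 mg/kg-d. Its change of 0.39 ± 0.15 passed narrowly (FDR 0.0434) and did not pass without any 1 of control animals 4, 5, 6 and 8 or treated animals 100, 101 and 102 (0.25 to 0.40, FDR 0.0554 to 0.147). Cpt2, Cpt1a, Fgf21 and Ppara were named after their values were seen.

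Lipid uptake, transport and droplet genes held 13 DEGs among 37 members, with 24 higher and 1 lower and a median change of 0.57 (0.47 above all genes). Plin2, the coat protein of lipid droplets, held 9.39, 9.54 and 9.61 in the controls and 11.75, 11.94 and 12.20 at 427 mg/kg-d (2.46 ± 0.18, FDR 6.91e-11). Cd36, a fatty acid transporter of the plasma membrane, held 3.02, 3.24 and 4.36 in the controls and 5.12, 5.35 and 6.33 at 427 mg/kg-d (2.08 ± 0.30, FDR 5.70e-06), with control animal 5 and treated animal 97 each well above the rest of their group. G0s2, an inhibitor of the lipase that empties droplets, held 5.26, 7.17 and 7.54 in the controls and 8.23, 8.82 and 9.35 at 427 mg/kg-d (1.96 ± 0.39, FDR 3.46e-04). These 3 genes did not overlap between groups, while Vldlr, the receptor for very low density lipoprotein, overlapped through 1 control at 0.15 to 2.51 in the controls and 1.87 to 3.36 at 427 mg/kg-d (1.81 ± 0.31, FDR 4.63e-05). Angptl4, an inhibitor of lipoprotein lipase named after its values were seen, held 8.89, 9.18 and 9.39 in the controls and 10.25, 10.45 and 10.55 at 427 mg/kg-d (1.26 ± 0.21, FDR 3.84e-05). Its medians at 198 and 313 mg/kg-d were 8.43 and 9.67, so that it stood below the controls at the lowest dose and above them at the top dose.

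Lipid synthesis moved in both directions. Of 35 members 18 rose and 2 fell, with a median change of 0.44 (0.34 above all genes), and the DEGs were 9 up and 2 down. Scd1, the desaturase that makes oleate, held 5.52, 6.06 and 7.52 in the controls and 9.29, 9.50 and 9.58 at 427 mg/kg-d (3.28 ± 0.25, FDR 1.77e-10), and even the highest control lay below the lowest treated liver. Elovl6, which elongates palmitate, held 5.01, 5.49 and 6.23 in the controls and 7.48, 7.87 and 8.00 at 427 mg/kg-d (2.23 ± 0.15, FDR 1.35e-11). Fasn (fatty acid synthase) rose by 1.46 ± 0.19, Me1 (malic enzyme, a source of NADPH) by 2.08 ± 0.19 and the transcription factor gene Srebf1 by 1.73 ± 0.27, with no overlap between groups in any of them. The DEGs that fell were Elovl3, an elongase of very long chains, and Lpin1, a phosphatidate phosphatase. Elovl3 held 11.99, 12.28 and 12.58 in the controls and 8.35, 9.52 and 10.47 at 427 mg/kg-d (-2.75 ± 0.26, FDR 6.39e-09). Lpin1 held 8.27, 8.68 and 9.58 in the controls and 5.81, 6.05 and 6.86 at 427 mg/kg-d (-2.63 ± 0.20, FDR 1.09e-10), and its medians of 6.27 and 5.85 at the lower doses were near that at 427 mg/kg-d. Its relative Lpin2 went the other way at 8.52, 8.88 and 9.17 in the controls and 10.24, 10.64 and 10.76 at 427 mg/kg-d (1.71 ± 0.13, FDR 1.51e-10), with medians of 8.17 and 9.42 at 198 and 313 mg/kg-d. Fasn, Me1, Srebf1 and Lpin2 were named after their values were seen.

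Sterol genes leaned downward. Of 18 enzymes of sterol synthesis 8 fell and 2 rose, and Mvk (mevalonate kinase) was the only DEG at 4.14, 4.52 and 4.82 in the controls and 3.19, 3.41 and 3.77 at 427 mg/kg-d (-1.07 ± 0.14, FDR 9.13e-07). Sqle (squalene epoxidase), named after its values were seen, did not overlap between groups at 6.02 to 6.64 in the controls and 4.93 to 5.87 at 427 mg/kg-d (-0.97 ± 0.18, FDR 1.16e-04). In the wider list of 27 genes of cholesterol metabolism 5 rose and 8 fell (3 and 11 with median-ratio scaling), with a median change of -0.16 (-0.26 relative to all genes), and Abcg5, a subunit of the sterol exporter, rose, with levels of 1.86 to 3.01 in the controls and 3.36 to 3.77 at 427 mg/kg-d (1.05 ± 0.17, FDR 2.38e-05). Of 25 genes of bile acid metabolism and transport 6 rose and 7 fell. Abcc3, an exporter towards the blood, held 4.04, 5.19 and 5.54 in the controls and 6.44, 6.84 and 7.18 at 427 mg/kg-d (1.74 ± 0.22, FDR 7.80e-07). Abcb4, the phospholipid exporter into bile, held 3.64 to 4.58 in the controls and 4.94 to 6.01 at 427 mg/kg-d (1.52 ± 0.21, FDR 2.30e-06). Cyp7b1, which hydroxylates oxysterols, held 3.40, 3.95 and 4.47 in the controls and 1.55, 2.23 and 2.62 at 427 mg/kg-d (-1.85 ± 0.26, FDR 3.54e-06), and the uptake carrier gene Slco1a1 held 5.83 to 6.09 in the controls and 4.11 to 5.05 at 427 mg/kg-d (-1.50 ± 0.19, FDR 1.06e-06). Cyp7a1, the rate-limiting enzyme of bile acid synthesis and named after its values were seen, overlapped at 4.81 to 5.70 in the controls and 5.05 to 7.26 at 427 mg/kg-d (1.02 ± 0.33, FDR 0.0199), and its call was lost with median-ratio scaling and without treated animal 100 (FDR 0.0649) or 102 (FDR 0.0552).

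Pyruvate dehydrogenase genes were higher, 7 of 11 and 0 lower, with a median change of 0.59 (0.48 above all genes). Pdk4, a kinase that inactivates the complex, held 1.71, 2.15 and 3.79 in the controls and 4.08, 5.39 and 6.18 at 427 mg/kg-d (2.98 ± 0.43, FDR 6.71e-06), with control animal 5 as the highest control and still below the lowest treated liver. Pdp2, the phosphatase that opposes the kinases, held 5.17, 5.47 and 5.70 in the controls and 6.25, 6.58 and 6.61 at 427 mg/kg-d (1.05 ± 0.11, FDR 2.23e-08). Of the 5 subunit genes 4 rose, none of them as a DEG, and Pdha1, named after its values were seen, held 7.14 to 7.80 in the controls and 7.56 to 8.11 at 427 mg/kg-d (0.52 ± 0.10, FDR 3.45e-04). In oxidative phosphorylation 57 of 81 nuclear genes rose and 0 fell, without a single DEG and with a median change of 0.44 (0.33 above all genes). Atp5pb of the ATP synthase did not overlap at 9.79 to 10.04 in the controls and 10.32 to 10.64 at 427 mg/kg-d (0.55 ± 0.08, FDR 3.67e-06), and neither did Atp5a1 at 9.86 to 10.06 in the controls and 10.24 to 10.50 at 427 mg/kg-d (0.38 ± 0.08, FDR 3.28e-04). Citric acid cycle genes (12 of 21 higher, 0 lower) held Idh1 at 9.47 to 9.97 in the controls and 10.10 to 10.48 at 427 mg/kg-d (0.62 ± 0.10, FDR 1.86e-05). By contrast, Ogdh, a subunit of the oxoglutarate dehydrogenase, stayed in a narrow band of 9.94 to 10.21 in the controls and 9.99 to 10.17 at 427 mg/kg-d (FDR 0.99). Mitochondrial ribosomal proteins counted 44 of 72 higher and 0 lower, with Mrps18b as the DEG at 5.60, 5.69 and 5.93 in the controls and 6.47, 6.91 and 7.02 at 427 mg/kg-d (1.08 ± 0.11, FDR 1.25e-08), Mrps16 at 0.33 ± 0.07 and Mrpl24 at 0.31 ± 0.08, which did not pass with median-ratio scaling (0.16, FDR 0.110). With median-ratio scaling the upward counts were 41 for oxidative phosphorylation, 9 for the citric acid cycle and 24 for the mitochondrial ribosome, and the downward counts 1, 3 and 0. Under that scaling the mitochondrial ribosome held 0 DEGs, so Mrps18b was no longer one. Of 40 carriers of the mitochondrial membrane 13 rose and 2 fell, among them Slc25a47 at 1.39 ± 0.21 and Slc25a22, a glutamate carrier, at 1.16 ± 0.14.

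**Figure D3:**
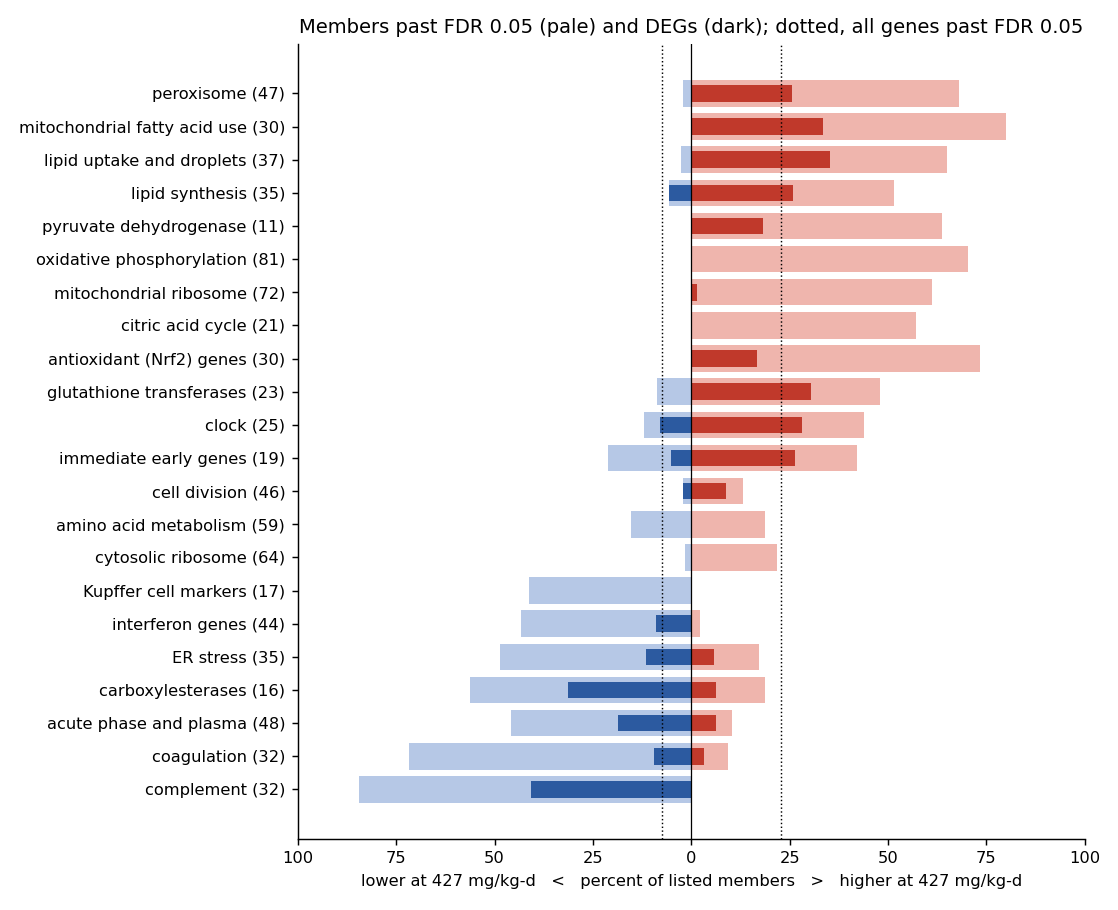
Percent of the listed members of 22 gene lists (number of members in brackets) that were higher (right) or lower (left) at 427 mg/kg-d at an FDR under 0.05 in pale bars, with DEGs in dark bars and dotted lines at 22.7 and 7.33%, the shares of all genes. Fatty acid and mitochondrial lists extend to the right and complement and coagulation to the left, and the balance of amino acid metabolism, 11 higher and 9 lower here, turns to 5 and 15 with median-ratio scaling.

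Plasma protein genes fell, complement most of all. Of 32 complement genes 27 fell and 0 rose, 13 were DEGs, and the median change was -0.88 (-0.99 relative to all genes). In 22 of the 32 all treated livers lay below all controls, against 369 of all 11275 genes. The 6 listed genes of the membrane attack complex all fell without overlap, by changes from -2.94 to -0.80, and 5 of them were DEGs. C9, which forms the ring of the pore, held 12.33, 12.51 and 13.20 in the controls and 8.98, 9.81 and 10.16 at 427 mg/kg-d (-2.94 ± 0.18, FDR 4.92e-12), and control animal 8 was the highest control. C8b held 10.61, 10.72 and 10.91 in the controls and 8.59, 8.81 and 9.22 at 427 mg/kg-d (-1.90 ± 0.12, FDR 4.92e-12), and C8a 9.08 to 9.37 in the controls and 7.57 to 8.27 at 427 mg/kg-d (-1.29 ± 0.11, FDR 9.02e-10). C6 spread widely among treated livers at 7.62, 7.82 and 8.04 in the controls and 5.56, 6.48 and 7.38 at 427 mg/kg-d (-1.34 ± 0.23, FDR 5.56e-05). Hc, the gene for C5, held 9.56 to 10.45 in the controls and 8.77 to 9.11 at 427 mg/kg-d (-1.24 ± 0.12, FDR 1.24e-08). The classical pathway gave the same count, with 6 of 6 lower and not overlapping and 4 DEGs. C4b held 5.73, 6.30 and 6.46 in the controls and 3.50, 4.21 and 4.80 at 427 mg/kg-d (-2.07 ± 0.16, FDR 1.42e-10), with 34.6% of its windows shared with C4a, and C1ra held 6.41, 6.45 and 6.75 in the controls and 3.53, 5.01 and 5.60 at 427 mg/kg-d (-1.70 ± 0.26, FDR 1.46e-05), with 50.8% shared with C1rb and a pseudogene. C3, the central component, held 11.72, 11.82 and 12.10 in the controls and 10.32, 10.88 and 11.11 at 427 mg/kg-d (-1.05 ± 0.15, FDR 3.22e-06). Per liver, the mean over the list lay between -0.06 and 0.05 in controls and between -1.14 and -0.71 at 427 mg/kg-d, as a log2 difference from the control mean. Hc, C6, C8a and C3 were named after their values were seen. In bulk liver, fewer cells of a type and less RNA per cell cannot be told apart.

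Coagulation genes were lower in 23 of 32 and higher in 3, with 3 DEGs down, 1 up and a median change of -0.50 (-0.60 relative to all genes). F5, a cofactor of thrombin formation, held 6.23, 6.74 and 7.12 in the controls and 4.58, 5.35 and 5.66 at 427 mg/kg-d (-1.45 ± 0.18, FDR 5.50e-07). F11 held 3.69 to 4.22 in the controls and 2.63 to 3.44 at 427 mg/kg-d (-1.11 ± 0.18, FDR 3.86e-05). Pzp, a broad protease inhibitor of plasma, held 12.38, 12.63 and 12.68 in the controls and 11.31, 11.52 and 11.63 at 427 mg/kg-d (-1.09 ± 0.10, FDR 2.04e-09). All 3 fibrinogen chains fell, with changes from -0.70 to -0.48 that are too small for a DEG. A2m, another protease inhibitor of plasma, held 2.83, 3.50 and 4.27 in the controls and 0.46, 1.24 and 2.01 at 427 mg/kg-d (-2.26 ± 0.30, FDR 1.44e-06).

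The acute phase and plasma carrier list counted 22 of 48 lower and 5 higher, with 9 DEGs down and 3 up and a median change of -0.52 (-0.62 relative to all genes), and the counts were 22, 5, 9 and 3 without control animal 8 too. Saa1, serum amyloid A, held 9.06, 9.75 and 13.12 in the controls and 6.35, 7.41 and 9.97 at 427 mg/kg-d (-2.61 ± 0.67, FDR 0.00401). Control animal 8 was far above the other controls, and without it the change of Saa1 was -2.05 (FDR 0.0146). The metal binding gene Mt2 held 4.35, 5.77 and 7.72 in the controls and 1.28, 3.43 and 4.60 at 427 mg/kg-d (-2.65 ± 0.83, FDR 0.0159), and without animal 8 its change was -2.28 (FDR 0.0471). Orm1, an acid glycoprotein named after its values were seen, did not overlap at 9.41 to 10.35 in the controls and 7.75 to 8.83 at 427 mg/kg-d (-1.45 ± 0.21, FDR 6.51e-06), and without animal 8 its change was -1.32 (FDR 2.79e-05). Itih1 had the largest decrease among the 4 heavy chains of the inter-alpha-trypsin inhibitor, all of which fell without overlap and 3 of which were DEGs, and it held 9.80, 9.92 and 10.03 in the controls and 7.49, 8.35 and 8.58 at 427 mg/kg-d (-1.74 ± 0.16, FDR 3.36e-09), also named after its values were seen. Serpina7, the thyroxine-binding globulin, held 3.90, 4.60 and 5.01 in the controls and 7.96, 8.76 and 9.79 at 427 mg/kg-d (4.18 ± 0.29, FDR 2.44e-11), and this was the largest increase of a plasma protein gene. Il1rn, the antagonist of the interleukin-1 receptor, rose, with levels of 1.86 to 3.00 in the controls and 3.31 to 4.38 at 427 mg/kg-d (1.77 ± 0.33, FDR 1.56e-04).

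Serpina1 genes belong to a family of protease inhibitors, and 3 were listed. Serpina1e held 12.43, 12.86 and 13.39 in the controls and 9.35, 10.46 and 12.14 at 427 mg/kg-d (-2.18 ± 0.29, FDR 1.51e-06), with treated animal 100 close to the lowest control. Serpina1b had a change of 0.00 ± 0.12 and levels of 12.71 to 13.14 in the controls and 12.74 to 13.01 at 427 mg/kg-d. Of the windows of Serpina1e 34.6% occur in other genes, mostly its close relatives. Among 29 apolipoprotein and lipoprotein genes 12 fell and 7 rose, and with median-ratio scaling 14 fell and 4 rose. Apoa4 held 6.60, 6.86 and 7.30 in the controls and 5.32, 5.83 and 6.14 at 427 mg/kg-d (-1.12 ± 0.13, FDR 1.45e-07). By contrast, Lipg, endothelial lipase, rose, with levels of 2.07 to 3.10 in the controls and 3.35 to 4.52 at 427 mg/kg-d (1.28 ± 0.22, FDR 4.75e-05).

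**Figure D4:**
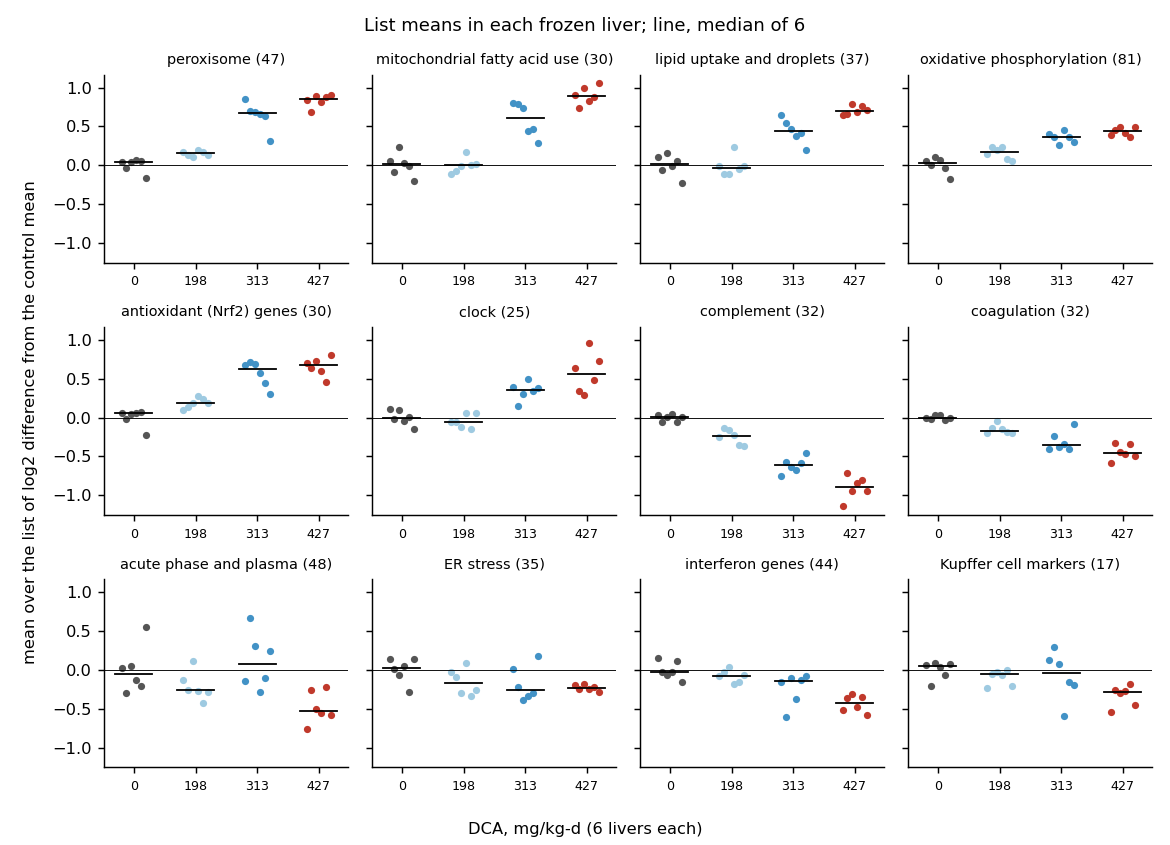
Mean over 12 gene lists of the log2 difference from the control mean (vertical axes) in every frozen liver, by dose of DCA (horizontal axes, mg/kg-d), with a line at the median of 6 livers. Complement lies between -1.14 and -0.71 at 427 mg/kg-d and between -0.06 and 0.05 in controls, while control animal 8 reaches 0.55 in acute phase and plasma genes.

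Detoxification genes split by family. Of 23 glutathione transferases 11 rose and 2 fell, and all 7 DEGs rose. Gsta1 held 1.00, 1.83 and 2.06 in the controls and 6.03, 6.53 and 7.13 at 427 mg/kg-d (4.78 ± 0.29, FDR 2.53e-12). Its neighbour Gm3776 held 0.57, 1.15 and 1.33 in the controls and 4.99, 5.49 and 6.08 at 427 mg/kg-d (4.38 ± 0.27, FDR 3.91e-12). Gsta2 held 1.56 to 3.13 in the controls and 5.39 to 6.32 at 427 mg/kg-d (3.11 ± 0.26, FDR 9.96e-10). These 3 genes lie on chromosome 9, and 90.5%, 92.5% and 49.8% of their windows recur in one another or in Gm10639, so reads of one cannot be kept from the others here. Gstt2 held 3.09 to 3.94 in the controls and 5.03 to 6.01 at 427 mg/kg-d (1.93 ± 0.19, FDR 1.14e-08) and Gstm1 4.33 to 5.29 in the controls and 6.25 to 6.85 at 427 mg/kg-d (1.52 ± 0.15, FDR 1.14e-08). Antioxidant genes of the Nrf2 pathway counted 22 of 30 higher and 0 lower with a median change of 0.60 (0.49 above all genes). Ephx1, the microsomal epoxide hydrolase, held 7.43, 8.06 and 8.45 in the controls and 9.79, 10.12 and 10.34 at 427 mg/kg-d (2.04 ± 0.18, FDR 2.80e-09), Srxn1, which repairs peroxiredoxins, rose by 1.58 ± 0.18, and Nfe2l2, the gene of Nrf2, by 1.54 ± 0.16. Nqo1, a quinone reductase named after its values were seen, rose by 1.41 ± 0.17. None of these 4 genes overlapped between groups.

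Aldehyde and carbonyl reducing or oxidising enzymes counted 14 of 28 higher and 4 lower (10 and 7 with median-ratio scaling, and 2 lower without control animal 7), with 5 DEGs, all upward. Aldh3a2, which oxidises fatty aldehydes, held 3.89, 5.06 and 5.45 in the controls and 7.74, 8.82 and 9.22 at 427 mg/kg-d (3.74 ± 0.31, FDR 5.73e-10). Akr1c18, a steroid dehydrogenase, rose, with levels of 0.71 to 1.46 in the controls and 2.92 to 4.39 at 427 mg/kg-d (2.21 ± 0.28, FDR 1.10e-06) and Akr1c19 from 3.41 to 3.94 in the controls and 4.69 to 5.48 at 427 mg/kg-d. Akr1e1 overlapped at 2.24 to 5.78 in the controls and 5.41 to 5.85 at 427 mg/kg-d (1.25 ± 0.44, FDR 0.0324), and its call was lost without any 1 of control animals 6 and 8 and treated animals 98 and 102 (0.84 to 1.24, FDR 0.0506 to 0.111). Among 20 glucuronosyltransferases 8 rose and 7 fell, a balance that turned to 5 and 7 with median-ratio scaling. Ugt2b38 held 4.57, 5.15 and 5.52 in the controls and 1.33, 1.84 and 2.88 at 427 mg/kg-d (-3.11 ± 0.27, FDR 1.29e-09). Other genes, mostly its Ugt2b relatives, hold 37.4% of its windows. Ugt2b1 held 6.24 to 6.80 in the controls and 4.06 to 5.54 at 427 mg/kg-d (-1.44 ± 0.19, FDR 2.01e-06). Ugt2b35 and Ugt1a7c went up, Ugt2b35 by 1.46 ± 0.14 and Ugt1a7c by 2.67 ± 0.32, and 53.7% of the windows of Ugt1a7c are shared with other Ugt1a genes, whose last exons are common. Carboxylesterases leaned down, with 9 of 16 lower, 3 higher and a median change of -0.60 (-0.71 relative to all genes). With median-ratio scaling or without control animal 8 only 1 rose. Ces3b held 9.53, 9.70 and 10.11 in the controls and 7.73, 8.19 and 8.63 at 427 mg/kg-d (-1.58 ± 0.18, FDR 2.19e-07), Ces3a changed by -1.38 ± 0.21 and Ces4a by -1.70 ± 0.19, while Ces2d-ps, a pseudogene with 76.9% of its windows in related genes, rose by 1.44 ± 0.25.

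Sulfotransferases counted 3 of 11 higher and 5 lower, or 3 lower without control animal 5 or 6. Sult2a7 held 1.99, 2.46 and 2.78 in the controls and 3.28, 3.64 and 4.24 at 427 mg/kg-d (1.23 ± 0.17, FDR 3.66e-06). Sult5a1 was low throughout, with up to 21 reads in a control and at most 1 read in a treated liver, so its fitted change is no bound on the true one. Sult1e1, which inactivates oestrogens, overlapped at 1.39 to 4.69 in the controls and 0.88 to 2.07 at 427 mg/kg-d (-1.29 ± 0.34, FDR 0.00454). Of 5 flavin monooxygenases 2 rose and 2 fell. Fmo5 held 6.38 to 7.31 in the controls and 6.92 to 8.01 at 427 mg/kg-d (0.67 ± 0.16, FDR 0.00249) and Fmo1 8.69 to 9.19 in the controls and 9.16 to 9.52 at 427 mg/kg-d (FDR 0.0731). Fmo1 passed by the rank sum test (FDR 0.0231) and in a fit of only the 2 groups compared (FDR 0.0176). The downward count of this family was 1 without any 1 of control animals 3, 4, 5 and 6 or treated animals 97, 98, 100, 101 and 102.

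Clock genes moved in both directions. The clock is a loop in which CLOCK and its partner BMAL1 (Arntl) switch on their own repressors and a set of output genes, and the hour at which the livers were taken is not given in the sources used here. Of 25 members 11 rose and 3 fell (10 and 5 with median-ratio scaling), with 7 DEGs up and 2 down. Nr1d1, the repressor REV-ERBα, held 1.17, 1.56 and 2.32 in the controls and 4.59, 4.77 and 5.25 at 427 mg/kg-d (3.21 ± 0.17, FDR 3.91e-13), and its relative Nr1d2 held 3.70, 4.04 and 4.39 in the controls and 5.66, 6.22 and 6.59 at 427 mg/kg-d (2.18 ± 0.17, FDR 3.85e-10). Dbp, an output transcription factor, held 3.03, 3.34 and 3.84 in the controls and 4.38, 6.68 and 8.49 at 427 mg/kg-d (3.13 ± 0.44, FDR 4.48e-06), with treated livers spread over more than 4 log2 units yet all above the controls. Per3 did not overlap at 0.81 to 1.51 in the controls and 1.70 to 4.12 at 427 mg/kg-d (1.77 ± 0.30, FDR 4.02e-05). In the other direction, Arntl held 3.98, 4.20 and 4.35 in the controls and 1.48, 3.00 and 4.29 at 427 mg/kg-d (-1.23 ± 0.26, FDR 6.39e-04), Nfil3, a repressor of Dbp targets, held 5.86, 6.05 and 6.46 in the controls and 4.05, 4.42 and 5.59 at 427 mg/kg-d (-1.44 ± 0.20, FDR 3.94e-06), and Cry1 changed by -0.74 ± 0.17. Clock itself held 6.61 to 6.80 in the controls and 6.60 to 7.23 at 427 mg/kg-d, with a change of 0.23 ± 0.10 that did not pass (FDR 0.0866), though without treated animal 100 (FDR 0.0234) or 102 (FDR 0.0486) it did. Ciart (1.40), Wee1 (1.60) and Bhlhe41 (1.44) rose with overlap between groups. Arntl, Nfil3, Cry1, Clock, Ciart, Wee1 and Bhlhe41 were named after their values were seen.

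Immediate early genes, which respond within minutes to outside signals, counted 8 of 19 higher and 4 lower (6 and 6 with median-ratio scaling). Egr1 held 0.15, 0.97 and 1.59 in the controls and 1.95, 3.35 and 3.78 at 427 mg/kg-d (2.11 ± 0.41, FDR 2.75e-04), Jun 3.12 to 4.25 in the controls and 4.86 to 5.50 at 427 mg/kg-d (1.56 ± 0.23, FDR 1.03e-05) and Dusp6, a phosphatase of the ERK pathway, 5.59 to 6.18 in the controls and 6.91 to 7.34 at 427 mg/kg-d (1.28 ± 0.15, FDR 1.77e-07). Myc overlapped through its highest control at 2.44 to 4.43 in the controls and 4.41 to 5.05 at 427 mg/kg-d (1.44 ± 0.37, FDR 0.00389). The level of Egr1 had medians of 3.78 and 2.31 at 198 and 313 mg/kg-d, so its order did not follow the dose. Fos, named after its values were seen, had at most 5 reads in any of the 12 livers. Heat shock genes counted 5 of 26 higher (19.2%) and 2 lower (7.69%), near the 22.7% and 7.33% of all genes. With median-ratio scaling the counts were 1 higher and 3 lower. Without any 1 of control animals 7 and 8 and treated animals 100 and 102, 3 were higher. Hspa1a, an inducible chaperone, held 2.62, 3.37 and 4.17 in the controls and 0.95, 1.96 and 2.36 at 427 mg/kg-d (-1.56 ± 0.31, FDR 3.60e-04). Other genes, mostly Hspa1b, hold 60.3% of its windows. The chaperones Hspa8 and Hspa9 of the cytosol and mitochondria held 10.03 to 10.96 in the controls and 9.96 to 11.11 at 427 mg/kg-d (FDR 0.273) and 9.98 to 10.41 in the controls and 10.27 to 10.71 at 427 mg/kg-d (0.32 ± 0.09, FDR 0.0082), and Hspa9 did not pass with median-ratio scaling (0.17, FDR 0.197).

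Genes with a known sex bias in mouse liver moved in these males on both lists. Of 22 male-biased genes 11 fell and 5 rose, with 9 DEGs down and 4 up (9 and 2 with median-ratio scaling). Ugt2b38, Elovl3, Serpina1e and Cyp7b1 were the 4 largest decreases, and Hsd3b5, a steroid dehydrogenase, changed by -1.17 ± 0.23 log2 units (FDR 2.74e-04). The 5 that rose were all Mup genes, which encode urinary pheromone carriers, and their groups overlapped. Of 9 listed Mup genes 4 were DEGs up and 1 down (2 and 1 with median-ratio scaling). Mup20 held 5.50, 6.70 and 8.57 in the controls and 7.37, 8.68 and 9.24 at 427 mg/kg-d (1.65 ± 0.38, FDR 0.00152), Mup1 7.11 to 9.04 in the controls and 8.47 to 9.54 at 427 mg/kg-d (1.10 ± 0.28, FDR 0.00334) and Mup21 4.45 to 5.70 in the controls and 2.32 to 4.06 at 427 mg/kg-d (-1.70 ± 0.32, FDR 1.97e-04). With 50.5% and 61.6% of their windows shared with other Mup genes, reads of Mup20 and Mup1 may be shared. Among 25 female-biased genes 9 rose and 5 fell. Cyp2b9 held 0.29, 0.75 and 1.53 in the controls and 4.31, 5.39 and 7.33 at 427 mg/kg-d (4.71 ± 0.39, FDR 7.31e-10). Cyp2a4 held 3.79, 4.44 and 4.62 in the controls and 7.74, 7.84 and 9.15 at 427 mg/kg-d (3.84 ± 0.25, FDR 1.24e-11). Other genes, mostly Cyp2a5, hold 38.0% of its windows. Slc22a27, an organic anion carrier, held 0.77, 1.27 and 1.64 in the controls and 3.39, 3.79 and 5.70 at 427 mg/kg-d (2.97 ± 0.36, FDR 5.15e-07). Cyp2c69 fell with overlap at 0.82 to 4.31 in the controls and 0.00 to 2.09 at 427 mg/kg-d (-1.91 ± 0.50, FDR 0.00418), and Nipal1 rose with overlap by 1.41 ± 0.41. Other genes, mostly Cyp2c relatives, hold 54.3% of the windows of Cyp2c69. Hsd3b5, Mup1, Mup21, Cyp2c69 and Nipal1 were named after their values were seen. In the growth hormone and IGF list 5 of 29 rose and 4 fell, against 3 and 5 with median-ratio scaling, and 3 rose without treated animal 102. Igfbp1, a binding protein of IGF, held 2.15, 3.59 and 4.14 in the controls and 4.53, 5.95 and 6.72 at 427 mg/kg-d (2.34 ± 0.46, FDR 2.79e-04). Sgk2, a kinase downstream of PI3 kinase, held 4.05, 4.39 and 4.66 in the controls and 5.83, 6.12 and 6.39 at 427 mg/kg-d (1.74 ± 0.15, FDR 1.46e-09).

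Genes of the endoplasmic reticulum (ER) stress response fell in 17 of 35 and rose in 6 (18 and 3 with median-ratio scaling), with a median change of -0.32 (-0.43 relative to all genes). All 13 chaperones and folding enzymes of the ER fell, 3 of them as DEGs. Sdf2l1, a partner of BiP, held 7.36, 8.03 and 8.49 in the controls and 5.21, 5.91 and 6.52 at 427 mg/kg-d (-2.08 ± 0.28, FDR 2.64e-06). Herpud1, a factor of ER protein degradation, held 8.24, 8.81 and 9.40 in the controls and 6.79, 7.55 and 8.08 at 427 mg/kg-d (-1.30 ± 0.21, FDR 3.34e-05). Creld2 held 8.37 to 10.65 in the controls and 8.05 to 8.94 at 427 mg/kg-d (-1.10 ± 0.33, FDR 0.0128). Hspa5, the gene of BiP, held 12.41 to 13.78 in the controls and 12.12 to 12.59 at 427 mg/kg-d (-0.77 ± 0.20, FDR 0.00452), both with overlap and both named after their values were seen. Atf3, a transcription factor of the stress response, went up at 0.69, 1.04 and 1.18 in the controls and 2.70, 3.07 and 3.38 at 427 mg/kg-d (2.04 ± 0.21, FDR 3.13e-08). Interferon-induced genes were lower in 19 of 44 and higher in 1. Isg15, a ubiquitin-like protein, held 5.80, 6.24 and 6.44 in the controls and 4.59, 4.87 and 5.36 at 427 mg/kg-d (-1.26 ± 0.19, FDR 9.88e-06). Ifit1, which binds foreign RNA, held 3.59, 4.16 and 4.61 in the controls and 2.65, 2.79 and 3.13 at 427 mg/kg-d (-1.28 ± 0.18, FDR 3.13e-06). Ifi47 changed by -1.07 ± 0.17 and Gbp6 by -1.70 ± 0.31, with 70.7% of the windows of Gbp6 shared with other Gbp genes.

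Of 46 cell cycle genes 6 were higher and 1 lower (3 and 3 with median-ratio scaling), and 3 were higher without control animal 7 or treated animal 99. Tk1, thymidine kinase, held 4.04, 4.95 and 5.70 in the controls and 2.88, 3.07 and 3.42 at 427 mg/kg-d (-1.79 ± 0.28, FDR 1.51e-05), while Ccnd1, cyclin D1, held 1.08, 1.92 and 2.51 in the controls and 2.40, 3.16 and 3.51 at 427 mg/kg-d (1.23 ± 0.24, FDR 2.42e-04). Cdc20 and Kif20a of late mitosis rose with wide overlap, Cdc20 by 1.13 ± 0.41 (FDR 0.0381) and Kif20a by 1.05 ± 0.38 (FDR 0.0381). The FDR of Cdc20 was 0.0552 to 0.119 without any 1 of control animals 3, 5, 7 and 8 or treated animals 98 and 99, and that of Kif20a was 0.0573 to 0.116 without any 1 of control animals 3, 5, 6 and 7 or the same treated animals. Mki67 (1.35 to 2.22 in the controls and 0.97 to 3.22 at 427 mg/kg-d, FDR 0.654) and Top2a (2.80 to 3.46 in the controls and 2.41 to 4.04 at 427 mg/kg-d, FDR 0.752), both markers of dividing cells named after their values were seen, did not pass the test. Of 27 p53 target and DNA damage genes 10 rose and 2 fell, with Gadd45a at 3.65 to 4.94 in the controls and 5.27 to 6.03 at 427 mg/kg-d (1.21 ± 0.20, FDR 3.18e-05), Gadd45b at 2.31 to 3.93 in the controls and 3.50 to 4.80 at 427 mg/kg-d (1.27 ± 0.28, FDR 0.00101) and Plk3 at 1.68 to 3.47 in the controls and 2.94 to 3.89 at 427 mg/kg-d (1.05 ± 0.26, FDR 0.0027). Of 44 nuclear receptors and liver transcription factors 12 rose (27.3%) and 3 fell (6.82%), near the 22.7% and 7.33% of all genes. With median-ratio scaling 9 rose and 4 fell. Ppard, the gene of PPARδ, was the only DEG at 5.45, 5.90 and 6.35 in the controls and 3.32, 4.01 and 4.98 at 427 mg/kg-d (-1.84 ± 0.21, FDR 2.05e-07), Creb3l3 held 10.74 to 10.96 in the controls and 11.29 to 11.63 at 427 mg/kg-d (0.62 ± 0.10, FDR 2.15e-05) and Cebpa 10.67 to 11.40 in the controls and 10.87 to 11.42 at 427 mg/kg-d (FDR 0.505).

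Sugar and amino acid metabolism moved less. In glycolysis and gluconeogenesis 10 of 33 genes rose and 5 fell, and with median-ratio scaling 9 and 8. Tkfc, a kinase of fructose metabolism, was the DEG at 6.87, 7.18 and 7.65 in the controls and 8.33, 8.47 and 8.66 at 427 mg/kg-d (1.23 ± 0.15, FDR 2.88e-07), and Fbp1 changed by 0.54 ± 0.11. Glycogen genes counted 7 of 20 higher and 1 lower (3 and 3 with median-ratio scaling), with the branching enzyme gene Gbe1 at 7.42, 7.76 and 8.05 in the controls and 8.73, 9.03 and 9.36 at 427 mg/kg-d (1.32 ± 0.13, FDR 2.37e-08) and the phosphorylase Pygl at 10.84 to 11.33 in the controls and 10.99 to 11.38 at 427 mg/kg-d (FDR 0.764). Without control animal 7 the upward count of glycogen genes was 4. Of 59 genes of amino acid breakdown 11 rose and 9 fell with no DEG, a balance that turned to 5 and 15 with median-ratio scaling. Hpd and Fah of tyrosine breakdown, a pathway whose enzyme glutathione transferase zeta also handles DCA, had changes of 0.08 ± 0.09 (FDR 0.595) and -0.02 ± 0.11 (FDR 0.903). One-carbon genes counted 2 of 20 higher and 5 lower (2 and 8 with median-ratio scaling), with Mat1a, which makes S-adenosylmethionine, at 10.05, 10.43 and 10.64 in the controls and 11.22, 11.45 and 11.74 at 427 mg/kg-d (1.02 ± 0.11, FDR 7.53e-08) and Bhmt at 0.18 ± 0.13 (FDR 0.348). Urea cycle and ammonia genes counted 4 of 17 higher (23.5%, near the 22.7% of all genes) and 2 lower (1 and 3 with median-ratio scaling). Arg1 at 0.12 ± 0.14 (FDR 0.565) and Glud1 at 0.05 ± 0.09 (FDR 0.761) did not pass. Without control animal 6 or treated animal 98 or 102 the upward count of this list was 2.

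Genes of general upkeep are given for comparison with the 22.7% higher and 7.33% lower of the whole table. Cytosolic ribosomal proteins counted 14 of 64 higher (21.9%) and 1 lower, with Rpl36al at 0.02 ± 0.10 (FDR 0.898) and Rpl10 at 0.19 ± 0.08 (FDR 0.0819), and without control animal 8 or treated animal 102 the upward count was 8 or 9. Rpl10 passed with quality weights for the libraries (FDR 0.0465) and by the rank sum test (FDR 0.0371). The proteasome counted 16 of 43 higher (37.2%) and 1 lower, with Psmd6 at 0.03 ± 0.11 (FDR 0.868) and Psmc1 at 0.32 ± 0.09 (FDR 0.00671), which did not pass with median-ratio scaling (0.17, FDR 0.191). With median-ratio scaling, 7 rose and 4 fell among cytosolic ribosomal proteins, and 8 and 1 in the proteasome. Both lists of genes that mark a position in the liver lobule sat below the median of all genes, pericentral genes by -0.22 and periportal genes by -0.23 on the log2 scale. Pericentral genes counted 5 of 26 higher and 6 lower (2 and 9 with median-ratio scaling, and 3 higher without control animal 4 or treated animal 98 or 101), with Aldh1a1 at 1.17 ± 0.21, Cyp2e1 at -0.20 ± 0.12 (FDR 0.209) and Cyp2c29 at -0.41 ± 0.19 (FDR 0.0992). With median-ratio scaling Cyp2e1 passed at -0.35 (FDR 0.0350) and Cyp2c29 at -0.56 (FDR 0.0254), and Cyp2c29 also without control animal 8 (-0.57, FDR 0.0148). Periportal genes counted 2 of 19 higher and 5 lower (2 and 7 with median-ratio scaling), and Pigr, which carries IgA into bile, held 6.26, 6.61 and 6.79 in the controls and 4.31, 5.14 and 5.77 at 427 mg/kg-d (-1.49 ± 0.17, FDR 2.41e-07).

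Markers of the cells a liver sample can hold were checked as whole lists. Hepatocyte markers counted 2 of 17 higher and 4 lower (0 and 10 with median-ratio scaling, and 7 lower without control animal 8), and their summed level ran from 64325 to 73387 CPM in controls and from 45856 to 59407 CPM at 427 mg/kg-d. Trf, transferrin, changed by -0.75 ± 0.14 (FDR 1.39e-04), and Apoa1 by -0.31 ± 0.15 (FDR 0.13), which passed with median-ratio scaling (-0.45, FDR 0.0288) and by the rank sum test (FDR 0.0371). Kupffer cell markers, those of the resident macrophages, fell in 7 of 17 and rose in 0, none as a DEG, with summed levels of 457 to 647 CPM in controls and 326 to 520 CPM in treated livers, and without treated animal 97 or 102 the count was 4. C1qb held 7.04, 7.09 and 7.48 in the controls and 6.10, 6.72 and 6.95 at 427 mg/kg-d (-0.54 ± 0.13, FDR 0.002), Adgre1, the antigen F4/80, 2.66 to 3.08 in the controls and 2.00 to 2.67 at 427 mg/kg-d (-0.50 ± 0.15, FDR 0.014), and Clec4f 2.50 to 3.21 in the controls and 2.55 to 3.08 at 427 mg/kg-d (FDR 0.37), and Mpeg1 changed by -0.38 ± 0.20 (FDR 0.163; without treated animal 101, -0.53 and FDR 0.0405). The 3 C1q chains belong to the complement list too, and the part of Kupffer cells in that list's fall was not tested. Monocyte and neutrophil markers (6 listed of 14) and lymphocyte markers (10 listed of 23) held no gene past an FDR of 0.05. Ly6g (-0.45 ± 0.25, FDR 0.175), Ccr2 (0.45 ± 0.19, FDR 0.0792) and Ptprc (-0.14 ± 0.23, FDR 0.703) are examples. Without treated animal 101 Ly6g passed (-0.64, FDR 0.0348), and Ccr2 passed without control animal 5 (0.53, FDR 0.0439) or treated animal 97 (0.53, FDR 0.0486). The lymphocyte list as a whole stood apart in treated animal 101, where 9 of 10 markers were at the highest level of the 12 livers. Its mean difference from the controls was 1.45 there and -0.11 to 0.05 in the other treated livers, and its summed level was 114 CPM against 29.5 to 42.8 CPM. Cd3d of T cells held 3.84 in animal 101 against 1.33 to 1.95 in the other treated livers. The mean of the monocyte and neutrophil list was 0.53 in that liver and -0.12 to 0.25 in the others.

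Endothelial markers counted 2 of 20 lower and 0 higher, with Dnase1l3 at -0.08 ± 0.08 (FDR 0.507) and Gpr182 at -0.08 ± 0.09 (FDR 0.561), and stellate cell and fibroblast markers 1 of 28 higher and 3 lower (6 and 10 lower with median-ratio scaling). Tagln rose with overlap at 3.74 to 4.69 in the controls and 4.58 to 5.52 at 427 mg/kg-d (1.05 ± 0.20, FDR 1.75e-04), while Ecm1 (-0.07 ± 0.12, FDR 0.706) and Bgn (-0.21 ± 0.08, FDR 0.0654) did not pass. Bgn passed with median-ratio scaling (-0.35, FDR 0.00131) and without treated animal 101 (-0.24, FDR 0.0328), and Dnase1l3 passed with median-ratio scaling (-0.23, FDR 0.0453). The lower endothelial count was 1 without any 1 of control animals 5 and 7 and treated animals 97 to 101, and the upward stellate count was 2 or 3 without control animal 5 or 8 or treated animal 100. Of 6 listed bile duct genes only Krt23 passed. Krt23, a keratin, held 0.97, 1.24 and 1.65 in the controls and 4.24, 4.37 and 4.70 at 427 mg/kg-d (3.17 ± 0.17, FDR 3.42e-13). By contrast, Krt19 (0.61 to 1.53 in the controls and 0.78 to 1.98 at 427 mg/kg-d, FDR 0.181), Krt7 (0.43 to 1.40 in the controls and 0.56 to 1.45 at 427 mg/kg-d, FDR 0.605) and Spp1 (FDR 0.225) did not pass, and Spp1 passed with median-ratio scaling at -0.35 (FDR 0.0457). Red cell genes fell in 3 of 9, with Alas2 at 3.20 to 4.14 in the controls and 2.06 to 3.43 at 427 mg/kg-d (-1.05 ± 0.23, FDR 0.00105), Hba-a1 at -0.69 ± 0.21 and Hba-a2 at -0.68 ± 0.21, and 72.3% and 89.3% of the windows of the globins are shared between them. Markers of tissues beside the liver (9 listed) held 1 DEG. Acta1, skeletal muscle actin, held 2.73, 3.25 and 10.80 in the controls and 1.76, 2.25 and 3.10 at 427 mg/kg-d (-2.54 ± 0.83, FDR 0.0207), and the top value was control animal 5. Mylpf (2.40 to 10.47 in the controls and 1.71 to 2.64 at 427 mg/kg-d) and Neb (3.04 to 6.73 in the controls and 2.37 to 3.13 at 427 mg/kg-d), other muscle genes, peaked in the same liver. Without animal 5 the changes were -1.35 (FDR 0.0167) for Acta1, -1.36 (FDR 0.0368) for Mylpf and -0.96 (FDR 0.00237) for Neb, and without control animal 6 they were -2.23 (FDR 0.0544), -2.08 (FDR 0.0708) and -1.51 (FDR 0.00433). Fabp2 changed by -0.15 ± 0.17 (FDR 0.548). The other 7 listed genes encode digestive enzymes of the pancreas, and all 7 were at the highest level of the 12 livers in treated animal 101. Try4 held 3.97 there against 0.00 to 1.40 in the other treated livers and up to 0.91 in controls, and Pnlip, pancreatic lipase, 3.17 against 0.00 to 1.75 and up to 1.53. Their changes were 0.35 to 0.96 and none passed (FDR 0.157 to 0.545). For this list of 9 the mean difference from the controls was 1.84 in animal 101 and -0.52 to 0.52 in the other treated livers. A liver at 198 mg/kg-d, animal 53, was high in the same lists (1.71, and 1.66 for lymphocytes). The part of other cells in the values of animal 101 was not tested. Adgre1, Clec4f, Krt19, Krt7, Mylpf, Neb, Try4 and Pnlip were named after their values were seen.

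Several of the largest changes fell outside these functions. Slc16a5, a monocarboxylate carrier, held 2.93, 3.37 and 4.03 in the controls and 6.69, 6.96 and 7.99 at 427 mg/kg-d (3.64 ± 0.29, FDR 4.65e-10), with treated animal 99 above the rest. Pctp, which shuttles phosphatidylcholine between membranes, held 2.50, 3.88 and 3.91 in the controls and 5.92, 6.84 and 7.02 at 427 mg/kg-d (3.13 ± 0.28, FDR 1.90e-09). Fbf1, which anchors cilia to their base, held 0.75, 0.81 and 1.00 in the controls and 4.06, 4.44 and 4.75 at 427 mg/kg-d (3.58 ± 0.34, FDR 7.02e-09). No 50-base window of Fbf1 occurs in another gene.

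On the side of the decreases, Lrtm1, a leucine-rich repeat membrane protein, held 2.89, 3.61 and 3.77 in the controls and 0.29, 0.42 and 1.05 at 427 mg/kg-d (-2.99 ± 0.21, FDR 2.81e-11) and had at most 8 reads in a treated liver. Slc22a28, an organic anion carrier, held 5.65, 6.23 and 6.61 in the controls and 3.01, 3.53 and 4.28 at 427 mg/kg-d (-2.59 ± 0.24, FDR 6.70e-09), with 53.9% of its windows in Slc22a27, Slc22a29 or Slc22a30. Gm4450, a relative of steroid dehydrogenases with 75.8% of its windows in other genes, held 9.42, 9.80 and 9.94 in the controls and 5.70, 7.60 and 8.76 at 427 mg/kg-d (-2.20 ± 0.31, FDR 3.83e-06). Dnaic1, a dynein chain of cilia, held 4.83, 4.95 and 6.25 in the controls and 1.85, 3.26 and 3.91 at 427 mg/kg-d (-2.14 ± 0.29, FDR 2.51e-06). Nat8f7, an acetyltransferase relative, held 2.11, 2.35 and 3.93 in the controls and 0.41, 0.52 and 1.20 at 427 mg/kg-d (-1.99 ± 0.27, FDR 2.07e-06). Nat8f3 or Nat8f6 hold 82.3% of its windows, so its reads may be shared. Lifr, the receptor of leukaemia inhibitory factor, held 8.58, 9.12 and 9.51 in the controls and 6.88, 7.24 and 7.46 at 427 mg/kg-d (-1.95 ± 0.19, FDR 1.29e-08), and Egfr, the receptor of epidermal growth factor, 9.92 to 10.80 in the controls and 8.96 to 9.75 at 427 mg/kg-d (-1.19 ± 0.16, FDR 2.06e-06). All 4 listed Raet1 genes, ligands of the activating receptor NKG2D, were DEGs that rose. For Raet1d and Raet1e, 55.8% and 44.7% of windows occur in other genes, mostly each other, so their reads may be shared. For Raet1b and Raet1c sharing was not measured. Raet1c held 2.56, 2.94 and 3.52 in the controls and 3.57, 4.66 and 7.22 at 427 mg/kg-d (2.01 ± 0.37, FDR 1.36e-04), Raet1e did not overlap either, and Raet1b and Raet1d did. Egfr, Raet1c, Raet1d and Raet1e were named after their values were seen.

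To see what the top dose added, 427 mg/kg-d was tested against 313 mg/kg-d in the same fit. The 2 doses gave 30 DEGs higher (0.266%) and 26 lower (0.231%) at 427 mg/kg-d, and 346 genes had an FDR under 0.05. By the exact rank sum test none of these genes passed, with 0 genes past an FDR of 0.05, a lowest FDR of 0.106 and 1619 genes at an unadjusted p under 0.05. With 6 against 6 livers the smallest p of that test is 0.00216, which genes without overlap such as Krt23 reach. The lowest FDR is that of such genes, so the test cannot decide on the limma calls. The median difference over all genes was 0.0050. Acot3 held 3.22, 5.33 and 7.23 at 313 mg/kg-d and 8.21, 8.98 and 10.04 at 427 mg/kg-d (3.77 ± 0.45, FDR 1.16e-05) and the 6 livers of each dose did not overlap. Cyp2b9 held 1.31, 3.09 and 4.12 at 313 mg/kg-d and 4.31, 5.39 and 7.33 at 427 mg/kg-d (2.62 ± 0.39, FDR 2.76e-04). Cyp2a4 held 4.89, 5.89 and 6.89 at 313 mg/kg-d and 7.74, 7.84 and 9.15 at 427 mg/kg-d (2.23 ± 0.25, FDR 7.53e-06). Cyp2a22 held 2.48, 2.81 and 3.65 at 313 mg/kg-d and 4.32, 5.39 and 6.02 at 427 mg/kg-d (2.18 ± 0.25, FDR 7.53e-06). Krt23 held 1.62, 2.27 and 2.87 at 313 mg/kg-d and 4.24, 4.37 and 4.70 at 427 mg/kg-d (2.21 ± 0.17, FDR 4.35e-09), again without overlap. Lipid genes with a further increase included Pdk4 (2.18 ± 0.43, FDR 0.006), Lpin2 (1.17 ± 0.13, FDR 7.53e-06) and Angptl4 (1.13 ± 0.21, FDR 0.00279), and plasma and carrier genes Serpina7 (1.21 ± 0.29, FDR 0.0183) and Slc16a5 (1.29 ± 0.29, FDR 0.0145). For Ehhadh the difference was 0.50 ± 0.31, FDR 0.424, for Gsta1 0.52 ± 0.29, FDR 0.349 and for Nr1d1 0.61 ± 0.17, FDR 0.0528, none of which passed, and a missed threshold does not show that the doses act alike.

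Lower at 427 than at 313 mg/kg-d were Serpina1e at 12.28, 12.70 and 13.06 at 313 mg/kg-d and 9.35, 10.46 and 12.14 at 427 mg/kg-d (-2.02 ± 0.29, FDR 1.36e-04) and C9 at 10.76, 10.99 and 11.25 at 313 mg/kg-d and 8.98, 9.81 and 10.16 at 427 mg/kg-d (-1.33 ± 0.18, FDR 1.05e-04). Serpina1e medians were 12.86, 12.94 and 12.70 from 0 to 313 mg/kg-d, so its fall appeared at the top dose. Acute phase genes led the decreases. Saa1 held 10.13, 11.32 and 13.56 at 313 mg/kg-d and 6.35, 7.41 and 9.97 at 427 mg/kg-d (-3.92 ± 0.67, FDR 0.00113). Saa2 held 8.74, 10.41 and 13.33 at 313 mg/kg-d and 5.00, 6.14 and 8.96 at 427 mg/kg-d (-4.34 ± 0.92, FDR 0.00872). Lcn2 held 6.29, 8.12 and 10.96 at 313 mg/kg-d and 4.20, 4.46 and 6.17 at 427 mg/kg-d (-3.52 ± 0.80, FDR 0.0145). Orm2 held 5.82, 6.99 and 10.10 at 313 mg/kg-d and 3.50, 4.21 and 5.88 at 427 mg/kg-d (-3.05 ± 0.69, FDR 0.0145). At 313 mg/kg-d their medians lay above those of the controls, and against the controls the change of Saa2 (-1.68 ± 0.92, FDR 0.176), Lcn2 (-1.84 ± 0.80, FDR 0.086) and Orm2 (-0.46 ± 0.69, FDR 0.662) at 427 mg/kg-d did not pass. Without control animal 8 these changes were -0.75 (FDR 0.52), -0.96 (FDR 0.287) and 0.01 (FDR 0.993). Without treated animal 99 the differences of Elovl3 (-0.86, FDR 0.0538) and Slc22a27 (1.26, FDR 0.0538) and without treated animal 98 that of Serpina7 (1.00, FDR 0.0504) no longer passed, from -1.09 ± 0.26, FDR 0.0176 for Elovl3 and 1.55 ± 0.36, FDR 0.017 for Slc22a27 with all animals.

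**Figure D5:**
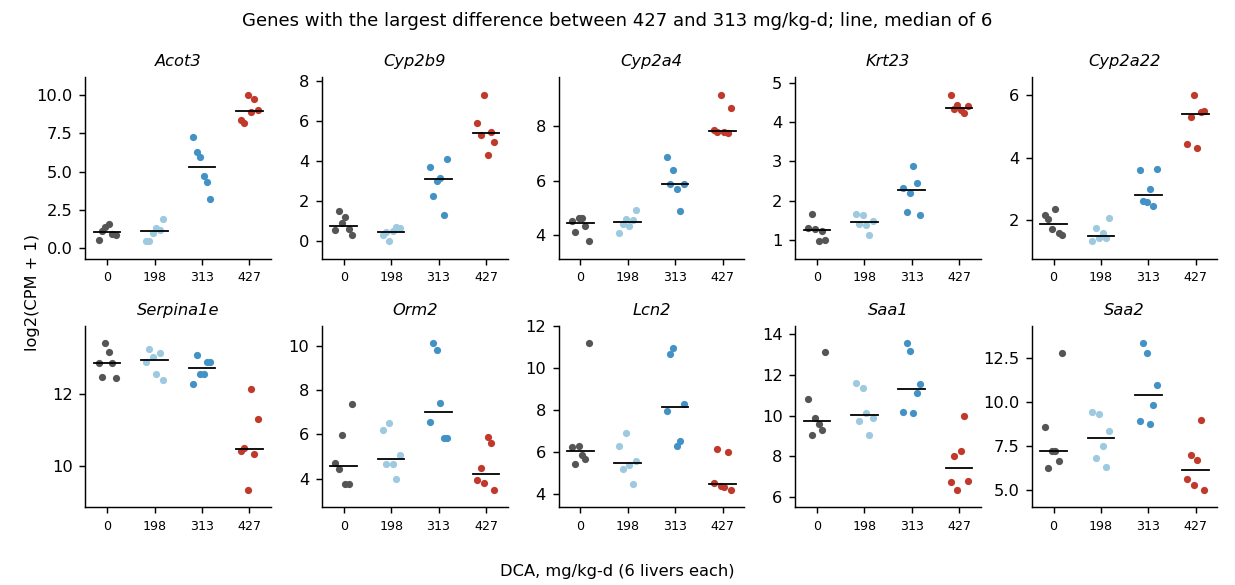
Level in every frozen liver (vertical axes, log2(CPM + 1)) by dose of DCA (horizontal axes, mg/kg-d) for the 5 genes with the largest increase (top) and the 5 with the largest decrease (bottom) from 313 to 427 mg/kg-d among DEGs, with lines at medians of 6 livers. Krt23 at 427 mg/kg-d lies above every liver at 313 mg/kg-d, and the acute phase genes of the lower row spread over several log2 units at 313 mg/kg-d and in control animal 8.

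Treated livers also differed among themselves. Above a mean of 10 CPM at 427 mg/kg-d, the 8 genes of largest SD there were Dbp, Saa1, Saa2, Amy2a5, Gm7102, Nop2, Serpina4-ps1 and Raet1b. Nop2, a factor of ribosome assembly, was at 2.02 in treated animal 101 and between 5.35 and 5.93 in the other 5 (FDR 0.554), and without animal 101 it rose by 1.02 (FDR 0.0189). Amy2a5, a pancreatic amylase, held 0.38, 1.30 and 2.33 in the controls and 0.00, 1.63 and 6.59 at 427 mg/kg-d (FDR 0.422), with animal 101 as the highest, and without it the change was 0.11. Gm7102 held 0.81, 1.92 and 2.84 in the controls and 0.23, 3.94 and 5.11 at 427 mg/kg-d (FDR 0.0776), lowest in animal 102, without which it rose by 2.14 (FDR 0.00358). Raet1b held 2.92, 3.32 and 4.15 in the controls and 3.03, 5.23 and 6.91 at 427 mg/kg-d (1.69 ± 0.39, FDR 0.00145). Serpina4-ps1 held 4.58, 5.96 and 6.69 in the controls and 1.89, 3.30 and 5.36 at 427 mg/kg-d (-2.36 ± 0.53, FDR 0.00129). In each of these 5 genes the groups overlapped.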

How the data were processed

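TempO-Seq FROZ libraries of 24 male mice, 6 for each of 4 doses, were analysed as deposited, and FFPE libraries were not used here. The deposited values are log2(CPM + 1), made by the authors from gene counts. Per the labels and the study's methods, reads were aligned to mm10 with STAR 2.6 in Partek, counted on RefSeq transcripts by expectation maximization, given a zero-count offset of 0.0001, filtered to genes with a geometric mean above 1, scaled to CPM, and log2 transformed with an offset of 1. Abundant probes were attenuated equally in every sample, which lowers their share of reads. CPM are shares of a library, so a large change in abundant genes shifts all others. Names that occur more than once (2) and names that read as dates (18) were kept as they are.

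DEGs were called by limma 3.58.1 (R 4.3.3) on the 24 libraries with dose as group, a variance prior that follows the mean, and Benjamini-Hochberg adjustment over 11275 genes (FDR under 0.05, fold change above 2). The script was tested on simulated data. Tables, sequences and plots used Python 3.11.15, numpy 2.4.6, pandas 2.3.3, scipy 1.17.1 and matplotlib 3.10.9. The CPM of 1 read was recovered as the step of the low values, of which 96.4 to 97.4% were whole within 0.1 read in the 12 libraries. Without molecular identifiers, the limit of 3 reads that a 0 allows covers counting error only. Of 53 gene lists, that of the mitochondrial genome had 0 members in the table. Shared sequence is the percent of 50-base windows of a gene's GENCODE vM21 transcripts found in other genes, and the positions of probes were not used here. The percent is printed for some named genes only. Others share sequence too, among them Trf (59.4%), Hspa8 (38.6%), Saa1 (31.5%) and Slc22a27 (29.9%). Atp5pb, Raet1b and Raet1c had no entry.

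Named genes are the markers, the 15 largest increases and 15 largest decreases among DEGs whose groups do not overlap (without Acot and Cyp), up to 4 DEGs of each list or its 2 genes of highest level, the 5 largest DEGs in each direction against 313 mg/kg-d, and the 8 with the largest SD among treated livers. Others are said to be named after their values were seen. Some genes that the rule names are not reported here. The members and lists were chosen with earlier results of these data known. Alternatives were other offsets (0.1 and 0.01 CPM), filters (mean of at least 1 or 10 CPM), median-ratio scaling, quality weights, only the groups compared, a prior without trend, an exact rank sum test, and leaving out each animal.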

Additional observations from a re-analysis of the deposited data

Results flagged for a closer look

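Single livers far from the rest of their group were sought in 436 groups of 6 livers, and 36 groups (8.26%) held one. Chance flags about 1 in 20 independent groups. These genes were chosen from the same data, some for their spread, and share the same livers, so the 2 shares cannot be compared. Levels are log2(CPM + 1), with the range of the other 5 livers in brackets. Control animal 8 was set apart in 12 of them. It was high in C9 at 13.20 (others 12.33 to 12.64), C1qb at 7.48 (others 7.04 to 7.18), Saa2 at 12.77 (others 6.24 to 8.56), Lcn2 at 11.18 (others 5.41 to 6.29) and Orm1 at 10.35 (others 9.41 to 9.73). It was low in Lrtm1 at 2.89 (others 3.50 to 3.77), Gsta1 at 1.00 (others 1.78 to 2.06), Gm3776 at 0.57 (others 1.11 to 1.33), Pctp at 2.50 (others 3.45 to 3.91), Abcc3 at 4.04 (others 5.03 to 5.54), Glud1 at 10.59 (others 10.94 to 11.11) and Mrps16 at 7.94 (others 8.19 to 8.31).

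Among the other controls, animal 3 stood apart in C1ra at 6.75 (others 6.41 to 6.50), Mrpl24 at 8.12 (others 7.86 to 7.94) and Adgre1 at 3.08 (others 2.66 to 2.80). Control animal 4 stood apart in Clec4f at 2.50 (others 3.04 to 3.21). Control animal 5 stood apart in Pdk4 at 3.79 (others 1.71 to 2.42), Gm4450 at 9.42 (others 9.78 to 9.94), Cd36 at 4.36 (others 3.02 to 3.31), Creb3l3 at 10.74 (others 10.88 to 10.96) and Neb at 6.73 (others 3.04 to 4.26). Control animal 6 stood apart in Hc at 9.56 (others 10.13 to 10.45). Control animal 7 stood apart in Nat8f7 at 3.93 (others 2.11 to 2.56).

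At 427 mg/kg-d the livers of animals 100 and 102 were not singled out. Treated animal 97 stood apart in Acadm at 10.99 (others 10.36 to 10.60) and Cd36 at 6.33 (others 5.12 to 5.42). Treated animal 98 stood apart in Pctp at 5.92 (others 6.67 to 7.02), Acaa1a at 10.27 (others 11.05 to 11.41), Ccnd1 at 2.40 (others 3.12 to 3.51), Pex11a at 4.83 (others 5.67 to 5.99) and Cry1 at 6.00 (others 4.56 to 5.03). Treated animal 99 stood apart in Slc16a5 at 7.99 (others 6.69 to 7.08) and Cyp2c69 at 2.09 (others 0.00 to 0.54). Treated animal 101 stood apart in Nat8f7 at 1.20 (others 0.41 to 0.53), Aldh1a1 at 4.51 (others 5.12 to 5.45), Cd3d at 3.84 (others 1.33 to 1.95) and Nop2 at 2.02 (others 5.35 to 5.93). The cause of these values was not tested.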

How the results depend on the processing

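The 395 DEGs at 427 mg/kg-d kept within 1.5 times under every alternative except an offset of 0.01 CPM, which gave 599 DEGs, 394 of them higher, against 577 with an offset of 0.1 CPM and 277 when genes needed a mean of at least 10 CPM. The cause of the larger count was not tested. Leaving out any 1 animal gave 373 to 405 DEGs, 244 to 270 higher and 124 to 155 lower, 3015 to 3295 genes at an FDR under 0.05, and 47 to 65 DEGs of 427 against 313 mg/kg-d. Median-ratio scaling gave 385 DEGs, 192 higher and 193 lower. By the exact rank sum test 365 genes were DEGs against the controls and 0 against 313 mg/kg-d, where 1619 genes had an unadjusted p under 0.05 and the lowest FDR was 0.106. There limma gave 56 DEGs, and 346 genes at an FDR under 0.05. The smallest p that 6 against 6 livers allow is 0.00216, which limits that test in a table of 11275 genes. No named gene with an FDR under 0.05 changed its sign against the controls under an alternative, whereas the balance of several lists turned with median-ratio scaling, as given with them. Of 215 named genes 172 had an FDR under 0.05, and 144 of these kept an FDR under 0.05 under all of the 21 alternatives that held them. This counts the FDR alone, and the status of a DEG can still be lost. With median-ratio scaling 0 DEGs rose in the cholesterol and one-carbon lists, which held Abcg5 and Mat1a. Without control animal 7 or treated animal 99 or 101, 0 DEGs rose in the stellate list, which held Tagln. No paired analysis was possible because the livers at 427 mg/kg-d and the controls share no animal or replicate number. Changes of genes with few reads are the least certain, since 1 read was worth 0.102 to 0.133 CPM and the offset of 1 CPM shrinks them.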
